A study of Mus musculus with 15 samples.

Results

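The 6 genes described here, which serve the production of reactive oxygen and nitric oxide and the breakdown of tryptophan, were followed in the mouse ileum: Duox2, Duoxa2, Nox1, Cybb, Nos2 and Ido1. They were taken by gene symbol, and all 6 were found among the 25329 genes of the deposited table. Of these, 5 passed the filter on low values (at least 1 FPKM in at least 5 libraries, which 11332 genes passed), and Nox1 did not. FPKM is the number of reads scaled to gene length and to library depth. Whole ileum was sequenced in bulk from 15 libraries, 5 per genotype, in a study that asked what RIPK1 kinase does in the ileitis that follows loss of TAK1. The control group (WT) carried floxed Tak1 alleles (Tak1 f/f). The next group (HO) had TAK1, the kinase encoded by Map3k7, deleted in intestinal epithelial cells (TAK1 IEC-KO). The last group (DHO) had the same deletion and the Ripk1 D138N/D138N genotype, in which both copies encode a RIPK1 without kinase activity. All groups, WT included, were given 3 daily intraperitoneal doses of 80 mg/kg tamoxifen in corn oil and ethanol, and tissue was taken 3 days post induction. The labels give neither the Cre driver nor the age, sex or litter of the mice, and do not say whether the libraries of a group came from separate mice, so p-values measure the spread between these libraries.

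DUOX2 is a dual oxidase of the apical surface of gut epithelium that releases hydrogen peroxide toward the lumen, and DUOXA2 is the factor that it needs to leave the endoplasmic reticulum. NOX1 is an epithelial superoxide-producing oxidase that works with the p22phox subunit (Cyba), an organizer (Noxo1), an activator (Noxa1) and the GTPase RAC1, whereas CYBB (NOX2) is the corresponding oxidase of phagocytes. NOS2 makes nitric oxide from arginine and needs tetrahydrobiopterin, and IDO1 opens the ring of tryptophan at the start of the kynurenine pathway. All of these genes are known to respond to cytokines or microbial products.

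Depth was even, at 38724783 to 40590053 reads per library. Map3k7 stood at 10.4 ± 0.803 FPKM (SD, n = 5) in WT, 8.66 ± 1.04 in HO and 9.23 ± 0.710 in DHO with overlapping ranges; whole ileum also holds cells other than epithelium. Some libraries stood apart. HO 1, DHO 3 and DHO 4 held Gata4, a transcription factor of the proximal small intestine, at 18.0 to 27.3 FPKM against 0.529 or less elsewhere. They differed in Fabp6, another listed marker of intestinal position, which stood at 0.0491 FPKM in HO 1 but at 8871 in DHO 3 and 9781 in DHO 4. In WT Fabp6 stood at 6935 to 11847 FPKM, and in HO 2 to HO 5 at 1356, 4089, 3359 and 12973. HO 2, HO 4 and DHO 1 held the B cell gene Ms4a1 at 7.04 to 15.5 FPKM against 0.286 or less elsewhere. Results of the members, and of the other genes and lists where a call or count moved, are given with and without these libraries. In bulk tissue, fewer cells of a type and less RNA per cell cannot be told apart.

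Ido1 was the member with the clearest difference: it rose in HO, where its mean was 166 FPKM against 33.1 in WT, and stood at 42.7 FPKM in DHO. Nox1 was lower in every HO library than in any WT library, and the genes of its organizer and activator fell with it. Duox2 was lower in HO by a margin that depended on single libraries, and Duoxa2 and Nos2 varied widely within HO and DHO and passed no test over all libraries. Cybb was lower in DHO than in HO, a call that also depended on single libraries. In the limma fit, with a threshold of 0.05 on the Benjamini-Hochberg adjusted p across the 11332 genes, 2 of the 5 members tested were called in HO against WT (1 higher, 1 lower), where 55.4% of all genes were called (12.4% higher and 42.9% lower). In DHO against HO, 2 of 5 were called, both lower, where 56.1% of all genes were called and 13.4% were called lower. In DHO against WT limma called 0 of 5, with 1 at an unadjusted p under 0.05, limma-voom called 0 and the permutation test called 0 of 6, where 0.238% of all genes were called (1.64% in a fit of only the DHO and WT libraries). With both directions counted, the members were called no more often than genes at large in the comparisons with HO. The comparisons of HO with WT and of DHO with HO share the HO libraries, so opposite signs in them are not independent.

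**Figure D1:**
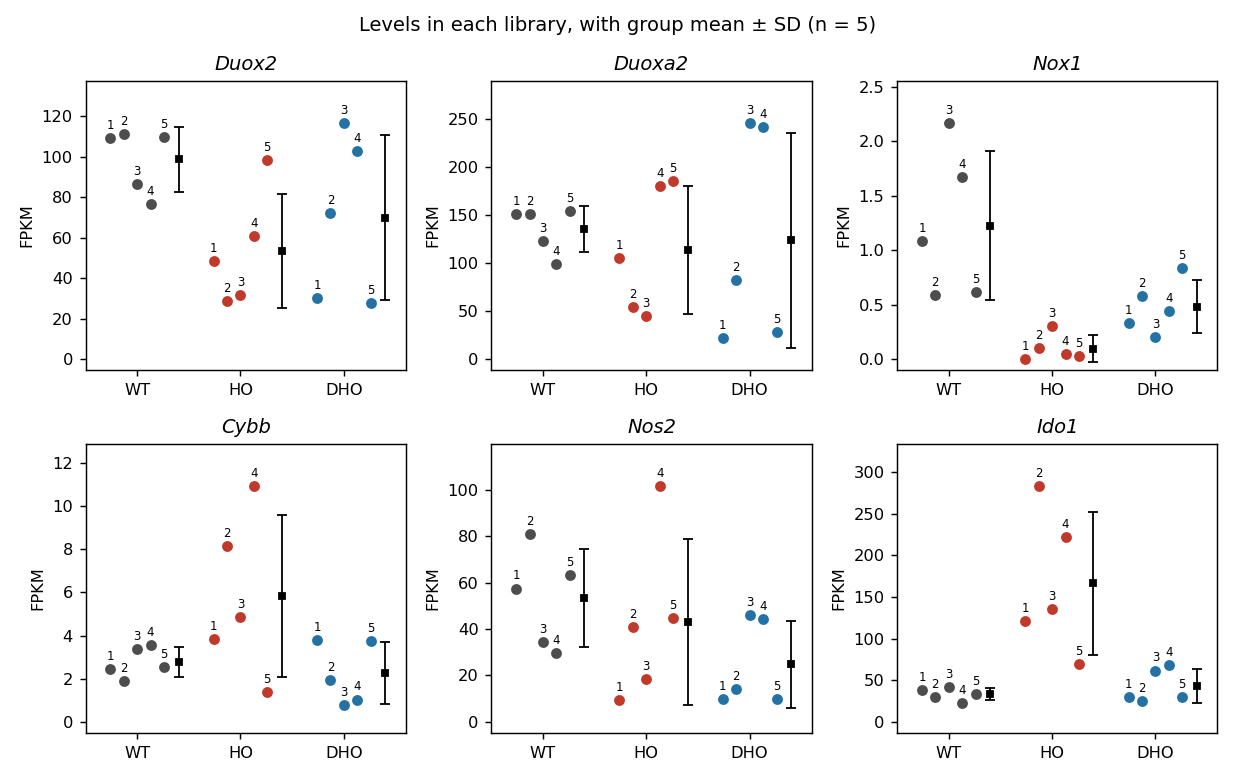
FPKM of the 6 genes in each library (points, numbered by library), with the mean ± SD of the 5 libraries of each group beside them. Ido1 in HO lies between 69.2 and 283 FPKM, above every WT and DHO library, whereas the groups overlap for Duox2, Duoxa2, Cybb and Nos2.

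Duox2 and Duoxa2 lie head to head on chromosome 2 (GRCm38.p6; Duox2 at chr2:122279246-122298740 on the minus strand, Duoxa2 at chr2:122298900-122302885 on the plus strand). The start sites used by the RefSeq promoter table lie 673 bases apart, and the 300-base windows around them (250 bases before and 50 after each start) are 172 bases apart. The Duox2 start site used, chr2:122298227, lies inside the span given for that gene. The windows are shown because the pair is followed together below. Capitals mark the matches to the motifs searched on both strands: TATAAA (in 13.6% of all 32851 promoters), TTCNNNGAA (8.3%), GAAANNGAAA (3.44%), TGANTCA (7.81%) and the NF-kB consensus (4.51%).
Duox2, chr2:122298178-122298477, minus strand: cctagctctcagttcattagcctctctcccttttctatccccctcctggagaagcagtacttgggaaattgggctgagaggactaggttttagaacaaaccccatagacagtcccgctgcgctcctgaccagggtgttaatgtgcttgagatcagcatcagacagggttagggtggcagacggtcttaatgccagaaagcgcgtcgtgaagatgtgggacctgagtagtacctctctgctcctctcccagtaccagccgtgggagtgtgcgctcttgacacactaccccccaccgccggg
Duoxa2, chr2:122298650-122298949, plus strand: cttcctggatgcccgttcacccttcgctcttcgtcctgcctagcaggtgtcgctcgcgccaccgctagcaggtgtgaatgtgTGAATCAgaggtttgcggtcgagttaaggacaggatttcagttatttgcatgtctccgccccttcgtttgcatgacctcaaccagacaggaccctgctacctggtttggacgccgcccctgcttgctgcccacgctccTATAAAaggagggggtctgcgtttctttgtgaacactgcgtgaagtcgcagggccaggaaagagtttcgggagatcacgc
The Duox2 window held none of the motifs and had a GC content of 55.3%. The Duoxa2 window, at 56.7% GC, held TATAAA starting 30 bases before the start site (position -30) and TGAATCA at -168. A match describes letters in the window and shows no binding.

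Duox2, the oxidase itself, stood in libraries 1 to 5 of WT at 109, 111, 86.6, 76.6 and 109.6 FPKM. In HO it stood at 48.4, 28.6, 31.7, 60.8 and 98.2 FPKM. In DHO it stood at 30.1, 72.3, 116.4, 103.0 and 27.5 FPKM. Of the HO libraries 4 lay below every WT library and HO 5 lay within the WT range, while DHO spanned values below and above all WT values. The group means were 98.7 ± 16.0 FPKM (SD, n = 5) in WT, 53.5 ± 28.2 in HO and 69.9 ± 40.8 in DHO. Duox2 fell in HO against WT by 1.00 on the log2(FPKM + 1) scale (SE 0.40, 95% interval -1.85 to -0.15, limma adjusted p = 0.0448). That call sat close to the threshold: it was lost when any 1 of WT 1, WT 2, WT 3, WT 5, HO 1, HO 2, HO 3, HO 4 or DHO 2 was left out, with changes of -1.08 to -0.81, and under median-of-ratios scaling (-0.68, limma adjusted p = 0.200). In HO against WT Duox2 did not pass the exact permutation test (adjusted p = 0.0857 over the 18 tests of members). DHO was not called against HO (0.29, 95% interval -0.56 to 1.14, limma adjusted p = 0.556) or against WT (-0.71, limma adjusted p = 0.923). Without HO 1, DHO 3 and DHO 4 the change from HO to DHO was -0.29.

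Duoxa2, the maturation factor, stood in WT at 150.6, 150.7, 122.3, 98.7 and 154.3 FPKM. In HO it stood at 105.1, 54.2, 44.4, 179.6 and 185.0 FPKM, and in DHO at 22.3, 81.8, 245.1, 241.9 and 27.7 FPKM. HO 4, HO 5, DHO 3 and DHO 4 exceeded every WT library, whereas DHO 1 and DHO 5 were the lowest of all 15. The means of 135 ± 24.2 FPKM in WT libraries, 114 ± 66.8 in HO and 124 ± 112 in DHO differed by less than the spread within HO and DHO. The changes were -0.46 in HO against WT (95% interval -1.77 to 0.85, limma adjusted p = 0.539) and -0.29 in DHO against HO (95% interval -1.60 to 1.03, limma adjusted p = 0.711). DHO 3 and DHO 4 are libraries with Gata4, and without them and HO 1 Duoxa2 was lower in DHO than in HO by the test (-1.33, limma adjusted p = 0.0485). Without HO 2, HO 4 and DHO 1 the change was 0.18, and leaving out DHO 1 or DHO 5 alone also turned its sign (0.16 and 0.084). The last 682 bases of Duoxa2 overlap exons of Duoxa1 on the opposite strand, and since the strand setting of the counting is not given, reads there cannot be assigned; Duoxa1 was listed at 0.0950 FPKM or less in every library.

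The pair moved together between libraries more closely than the genotype means show. Pearson's r of log2(FPKM + 1) between Duox2 and Duoxa2 over the 15 libraries was 0.89, and 0.96 once each group's mean was removed (a description; libraries share their depth scaling and tissue make-up). The ratio of Duoxa2 to Duox2 FPKM, looked at after the values had been seen and not tested, lay between 1.29 and 1.41 in all WT libraries. It was 2.17, 1.90, 1.40, 2.96 and 1.88 in HO and 0.742, 1.13, 2.11, 2.35 and 1.01 in DHO. In HO 4 libraries lay above the WT range and HO 3 lay inside it, while in DHO 2 libraries, DHO 3 and DHO 4, lay above it and the other 3 below it. Among all genes that passed the filter, Duoxa2 itself was the gene most like Duox2, followed by Bpgm, Urah, Alas1 and Jpt1 (r = 0.80 to 0.85). For Duoxa2 the most alike was Nfkbiz, which encodes a nuclear IkB protein (r = 0.93), followed by Duox2, the defensin gene Defa38, Elac1 and the defensin gene Defa21 (0.77 to 0.89).

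**Figure D2:**
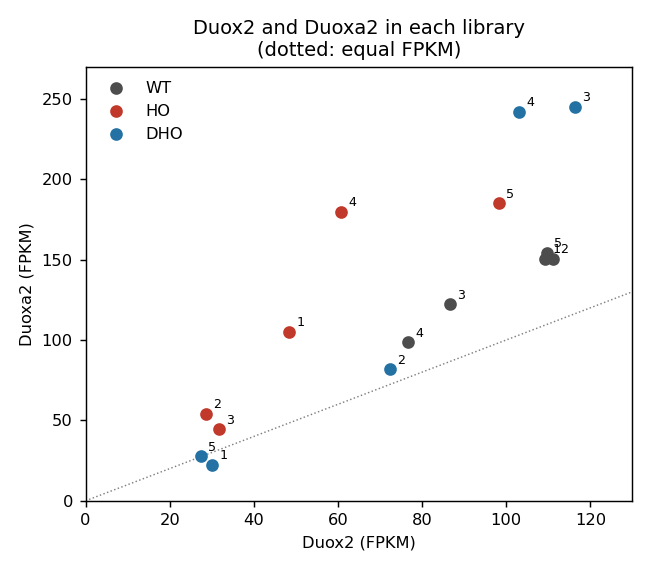
FPKM of Duoxa2 against FPKM of Duox2 in each of the 15 libraries, coloured by genotype and numbered by library, with a dotted line where both are equal. The WT libraries lie along a narrow line at ratios of 1.29 to 1.41, and DHO splits into DHO 3 and DHO 4 at the top and DHO 1 and DHO 5 at the bottom left.

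Nox1 (chrX:134086421-134137711, minus strand) was the least abundant member. Its RefSeq promoter window, with GC content 38.0%, is shown for comparison with the dual oxidase windows. The start site used for the window, chrX:134111854, lies inside the gene span given above, not at its upstream end. The capitals mark the match to the NF-kB consensus at -91, the only motif of the set found in the window.
Nox1, chrX:134111805-134112104, minus strand: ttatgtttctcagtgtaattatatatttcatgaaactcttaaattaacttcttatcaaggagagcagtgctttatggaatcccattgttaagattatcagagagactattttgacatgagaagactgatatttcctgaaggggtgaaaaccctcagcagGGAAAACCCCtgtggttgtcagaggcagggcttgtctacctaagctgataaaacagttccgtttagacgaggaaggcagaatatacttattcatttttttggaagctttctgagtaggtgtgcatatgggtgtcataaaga
In WT it stood at 1.09, 0.588, 2.16, 1.67 and 0.619 FPKM, which came from 123, 66, 247, 193 and 71 reads. In HO it stood at 0, 0.105, 0.306, 0.0436 and 0.0262 FPKM, from 0, 12, 36, 5 and 3 reads. In DHO it stood at 0.333, 0.581, 0.206, 0.439 and 0.839 FPKM, from 38, 68, 24, 51 and 95 reads. Every HO library lay below every WT library, DHO 3 lay among the HO values, and DHO 5 lay among the WT values. HO 1, with 0 reads, is one of the libraries with Gata4, and a count of 0 allows up to 3 reads. The means were 1.23 ± 0.684 FPKM (SD, n = 5) in WT, 0.0962 ± 0.123 in HO and 0.479 ± 0.244 in DHO.

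Because Nox1 did not pass the filter, it was tested by an exact two-sided permutation test of log2(FPKM + 1), whose smallest possible p with 5 against 5 libraries is 0.00794. Nox1 fell by 0.97 in HO against WT and reached that p (exact permutation test, adjusted p = 0.0476 over the 18 tests of members); the added 1 FPKM understates changes at such low levels. For the count of members with separate groups, which was 2 of 6 in this comparison (Ido1 and Nox1), 36% of all genes tested had separate groups (6.19% higher in HO, as Ido1, and 29.8% lower, as Nox1). DHO lay above HO by 0.42 (exact permutation p = 0.0159, adjusted p = 0.0714) and below WT by a change of -0.55 (exact permutation p = 0.0397, adjusted p = 0.119), neither of which passed. With the filter lowered to 0.1 FPKM, which let Nox1 into the fit, limma called it lower in HO than in WT (adjusted p = 0.000415) and did not call it in DHO against HO (adjusted p = 0.0562) or in DHO against WT (adjusted p = 0.350). Nox1 shares 399 exon bases with Cstf2 on the opposite strand, where reads cannot be assigned without the strand setting. The genes most like it over the 15 libraries were Fam13a, Sidt1, Tlcd3a, Car8 and Zfp324 (r = 0.90 to 0.92).

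Of 12 listed oxidase partners and relatives in the table, 9 passed the filter, and in HO against WT 1 rose and 3 fell, with a median change of 0.073 against -0.25 over all genes tested. With median-of-ratios scaling 3 rose and 2 fell (median 0.37), but Noxa1 and Noxo1 were called lower under each scaling tried. The 3 that fell encode the partners of NOX1. Noxa1, its activator, was 11.8 ± 1.25 FPKM in WT libraries, 1.84 ± 0.796 in HO and 6.28 ± 1.87 in DHO. It fell by 2.20 in HO against WT (limma adjusted p = 1.46e-06) and rose by 1.36 in DHO against HO (limma adjusted p = 5.55e-05), with 3 groups that did not overlap. Noxo1, the organizer, was 25.4 ± 2.42 FPKM in WT libraries, 9.99 ± 5.40 in HO and 18.2 ± 1.72 in DHO, fell by 1.39 in HO against WT (limma adjusted p = 0.000224) and rose by 0.93 in DHO against HO (limma adjusted p = 0.00375). Without HO 2, HO 4 and DHO 1 the latter change was 0.64 (limma adjusted p = 0.0635), and without all 6 libraries that stood apart it was 0.29 (limma adjusted p = 0.194). Cyba, the p22phox subunit shared with NOX2, fell by 0.53 in HO against WT (limma adjusted p = 0.0116), but the change was -0.22 with median-of-ratios scaling (limma adjusted p = 0.273) and -0.079 relative to the epithelial markers (limma adjusted p = 0.787). Rac1, a GTPase with many other partners, went the other way, from 287 ± 17.9 FPKM in WT to 509 ± 91.4 in HO and 302 ± 39.1 in DHO (0.81 in HO against WT, limma adjusted p = 0.000100). The 12 epithelial markers summed to 11488 to 12800 FPKM in WT, 8365 to 11144 in HO and 9926 to 12070 in DHO. In HO against WT limma called 1 of the 12 higher and 5 lower, where 12.4% and 42.9% of all genes were called so. With median-of-ratios scaling these counts were 4 and 5, and without HO 1, DHO 3 and DHO 4 they were 2 and 5. The part of epithelial content in the oxidase values was not tested.

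In DHO against WT, these NOX1 partners were where the oxidase genes stood apart most. Every DHO library lay below every WT library for Noxa1 (3.88 to 8.13 against 10.3 to 12.9 FPKM), Noxo1 (16.7 to 21.1 against 22.4 to 28.8) and Cyba (56.9 to 68.7 against 87.6 to 105.6), where 1.96% of all genes had DHO wholly below WT. In the fit over all 15 libraries 0 of the 9 partners were called by limma, with 3 at an unadjusted p under 0.05. The changes were -0.85 for Noxa1 (limma adjusted p = 0.104), -0.46 for Noxo1 (limma adjusted p = 0.888) and -0.57 for Cyba (limma adjusted p = 0.245). In a fit of only the 10 DHO and WT libraries all 3 were called lower (limma adjusted p = 0.0303, 0.0211 and 0.00467), where 0.838% of all genes were called lower. With median-of-ratios scaling, quantile normalization, scaling to the epithelial markers or limma-voom, 0 of the 9 were called lower. Without HO 1, DHO 3 and DHO 4, and without all 6 libraries that stood apart, the count was also 0. Without HO 2, HO 4 and DHO 1 it was 1. Duox1, the other dual oxidase, reached at most 0.135 FPKM in any library and was not tested.

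**Figure D3:**
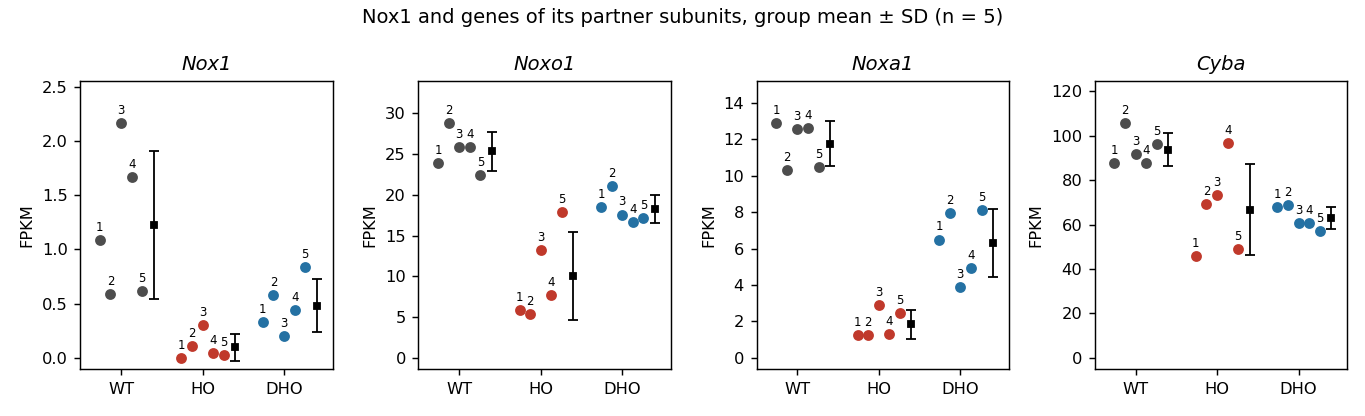
FPKM of Nox1 and of the genes of its partner subunits Noxo1, Noxa1 and Cyba in each library (points, numbered by library), with the group mean ± SD (n = 5). Noxa1 falls into 3 separate groups, with WT at 10.3 FPKM or more, DHO between 3.88 and 8.13 and HO at 2.92 or less, whereas HO spans from 45.9 to 96.5 FPKM for Cyba.

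Cybb (chrX:9435252-9487766, minus strand), the phagocyte oxidase, is set beside the epithelial members as a gene of another cell type. Its window, at 35.3% GC, held 3 matches to GAAANNGAAA, at -168, -124 and -29, and TGAATCA at -139 (capitals). Positions count from the start site chrX:9469324, which lies inside the gene span given above, not at its upstream end.
Cybb, chrX:9469275-9469574, minus strand: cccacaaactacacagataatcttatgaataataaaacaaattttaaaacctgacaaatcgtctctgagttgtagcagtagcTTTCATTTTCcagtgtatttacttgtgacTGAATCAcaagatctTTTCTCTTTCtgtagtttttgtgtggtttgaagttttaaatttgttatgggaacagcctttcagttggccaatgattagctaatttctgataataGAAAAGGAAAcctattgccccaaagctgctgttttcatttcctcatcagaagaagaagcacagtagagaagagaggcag
Cybb stood in WT at 2.47, 1.87, 3.39, 3.57 and 2.54 FPKM. In HO it stood at 3.84, 8.14, 4.85, 10.9 and 1.39 FPKM, and in DHO at 3.80, 1.92, 0.782, 1.03 and 3.77 FPKM. HO 1 to HO 4 exceeded every WT library, HO 5 lay below all of them, and DHO 3 and DHO 4 were the lowest of the 15. The means were 2.77 ± 0.701 FPKM (SD, n = 5) in WT, 5.83 ± 3.74 in HO and 2.26 ± 1.45 in DHO. Cybb was not called in HO against WT (0.68, 95% interval -0.13 to 1.48, limma adjusted p = 0.139), but was without HO 5 (1.00, limma adjusted p = 0.0160) and with quantile normalization (0.92, limma adjusted p = 0.0438). Without all 6 libraries that stood apart, Cybb changed by 0.0101 in HO against WT and was not called. Cybb was lower in DHO than in HO (-0.99, SE 0.38, 95% interval -1.79 to -0.18, limma adjusted p = 0.0368). That call was lost when any 1 of HO 2, HO 3, HO 4, DHO 2, DHO 3 or DHO 4 was left out (-0.99 to -0.73). Cybb in DHO against HO did not pass the exact permutation test (adjusted p = 0.179). Without HO 1, DHO 3 and DHO 4 the change was -0.62 (limma adjusted p = 0.230), without HO 2, HO 4 and DHO 1 it was -0.61 (limma adjusted p = 0.184), and without all 6 it was -0.00392 (limma adjusted p = 0.995).

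Markers of phagocytes, a known source of Cybb, are given beside it. The HO libraries with the most Cybb (HO 4 at 10.9 and HO 2 at 8.14 FPKM) are those with the B cell gene Ms4a1. In DHO the library with Ms4a1, DHO 1, was also the highest (3.80 FPKM), just above DHO 5 (3.77). The summed level of the 14 macrophage and monocyte markers, none at 0 in a whole group, was 188 to 358 FPKM in WT, 158 (HO 5) to 764 (HO 4) in HO and 111 (DHO 3) to 306 in DHO. Abundant markers such as Lyz2 (mean 155 FPKM in HO) weigh most in this sum. Mean FPKM was lower in HO than in WT for Adgre1 (1.62 against 2.40), Itgam (2.79 against 3.82) and Cx3cr1 (1.84 against 2.82). It was higher in HO for the rest of the list. Of the 13 macrophage and monocyte markers that passed the filter, 2 rose in HO against WT, where 12.4% of all genes were called higher, and 8 fell in DHO against HO, where 13.4% were called lower. Without HO 1, DHO 3 and DHO 4 the 8 became 3, without HO 2, HO 4 and DHO 1 they became 2, and without all 6 they became 0; the 2 became 3, 0 and 1. The 11 neutrophil markers in the table summed to 2.05 to 2.84 FPKM in WT, 3.70 (HO 5) to 34.1 (HO 4) in HO and 1.23 to 3.53 in DHO, with Ngp at 0 in all WT libraries. Of the 3 that passed the filter, 2 rose in HO against WT and fell in DHO against HO, and without all 6 libraries 1 did so in each comparison. Ly6g passed only through HO, at 1.47 FPKM or more there and 0.219 or less elsewhere. S100a8 stood at 0.725 FPKM or less in WT and reached 5.35 in HO. The filter thus favoured neutrophil markers high in HO, so these counts give no separate support for a rise. The part of macrophages, neutrophils or B cells in the Cybb values was not tested. Among the cytosolic partners of NOX2, 3 were not called in HO against WT and fell in DHO against HO: Ncf1 (p47phox) by 0.88 (limma adjusted p = 0.0155), Rac2 by 0.78 (limma adjusted p = 0.0242) and Ncf4 (p40phox) by 0.66 (limma adjusted p = 0.0449). None of these 3 was called without HO 1, DHO 3 and DHO 4 (limma adjusted p = 0.107, 0.142 and 0.270) or without all 6 (limma adjusted p = 0.353, 0.0724 and 0.636). The genes most like Cybb over the 15 libraries were Rcsd1, Ms4a6b, Hcls1, Ets1 and Rgs19 (r = 0.95 to 0.96). Cybb ran against Duox2 within groups (r = -0.75 with group means removed, over 15 libraries).

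Nos2 (chr11:78920787-78960226, plus strand), the inducible nitric oxide synthase, stood in WT at 57.5, 80.9, 34.4, 29.9 and 63.5 FPKM. In HO it stood at 9.49, 40.9, 18.5, 101.6 and 44.6 FPKM, and in DHO at 9.86, 14.2, 46.3, 44.4 and 9.73 FPKM. HO 4 was the highest and HO 1 the lowest of all 15 libraries, so HO enclosed the whole range of the other groups. In DHO, the libraries with Gata4 (DHO 3 and DHO 4) were within the WT range and the others were below it. The means were 53.2 ± 21.2 FPKM (SD, n = 5) in WT, 43.0 ± 35.9 in HO and 24.9 ± 18.7 in DHO. No comparison was called by limma. The changes were -0.61 in HO against WT (95% interval -1.83 to 0.61, limma adjusted p = 0.372) and -0.68 in DHO against HO (95% interval -1.90 to 0.54, limma adjusted p = 0.326). In DHO against WT the change was -1.29 (95% interval -2.51 to -0.074, limma adjusted p = 0.731), the one change of the 5 members in the fit with an unadjusted p under 0.05 there. Without HO 1, DHO 3 and DHO 4, Nos2 was lower in DHO than in HO by the test (-1.87, limma adjusted p = 0.00531), and the change against WT was -2.07 (limma adjusted p = 0.0847). Without HO 2, HO 4 and DHO 1 the change from HO to DHO was 0.21, so the direction rested on which libraries were kept.

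Nos2 shared part of its pattern with the dual oxidase pair. With group means removed, r over the 15 libraries was 0.72 with Duoxa2 and 0.65 with Duox2, and 0.54 with Ido1. Within the 5 HO libraries alone, r was lower, at 0.47 with Duoxa2, 0.33 with Duox2 and 0.34 with Ido1. These values were 0.97, 0.92 and 0.94 in DHO, and 0.91, 0.96 and 0.16 in WT. The genes most like Nos2 were H2-DMb1, Nfkbiz, Casp4, Nufip2 and Edn3 (r = 0.75 to 0.84 over the 15 libraries). Nfkbiz was thus among the 5 most alike for both Duoxa2 and Nos2. It stood at 12.8 to 26.4 FPKM in WT, 10.8 to 27.6 in HO and 7.01 to 24.5 in DHO, where DHO 3 and DHO 4 were again the highest, and it was not called in HO against WT (-0.13, limma adjusted p = 0.757).

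Of the 19 listed genes of nitric oxide and arginine metabolism, 15 passed the filter, with 2 higher and 6 lower in HO against WT (median -0.19) and 7 higher and 2 lower in DHO against HO (median 0.17). These shares lie near those of all genes, of which 12.4% were higher and 42.9% lower in HO against WT, and 42.8% higher and 13.4% lower in DHO against HO. The balance depended on scaling: relative to the epithelial markers 6 were higher and 4 lower in HO against WT (median 0.26), and 5 higher and 6 lower in DHO against HO (median -0.25). Pts, which makes the pyruvoyl intermediate of tetrahydrobiopterin, was 13.3 ± 1.04 FPKM in WT libraries, 5.92 ± 0.824 in HO and 12.1 ± 1.11 in DHO, and fell by 1.05 in HO against WT (limma adjusted p = 2.43e-06). Spr, which completes the synthesis, fell by 0.72 (limma adjusted p = 0.000181), and Qdpr, which regenerates the cofactor, fell by 1.36 (limma adjusted p = 0.00119). For Pts and Spr the HO libraries overlapped neither WT nor DHO. Gch1, the first enzyme of that synthesis, was not called (0.12, limma adjusted p = 0.479). Ass1, which rebuilds arginine from citrulline, rose by 1.14 in HO against WT (limma adjusted p = 0.00276), with a change of 1.07 that was not called without all 6 libraries that stood apart (limma adjusted p = 0.0544). Arg2, the mitochondrial arginase, fell by 2.86 (limma adjusted p = 0.00677), with a change of -1.48 that was not called without HO 2, HO 4 and DHO 1 (limma adjusted p = 0.0820). Its HO median was 2.42 FPKM, but its highest HO library, at 50.4 FPKM, lay above the highest WT library (39.8).

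Ido1 (chr8:24584133-24596952, minus strand) was the member that separated HO from both other groups. It stood in WT at 38.5, 29.3, 41.6, 23.0 and 33.3 FPKM. In HO it stood at 121, 283, 135, 222 and 69.2 FPKM, and in DHO at 29.4, 24.8, 61.6, 67.8 and 30.0 FPKM. All 5 HO libraries exceeded every WT and DHO library, with HO 5 (69.2) only just above DHO 4 (67.8), and DHO overlapped WT except in DHO 3 and DHO 4. The means were 33.1 ± 7.38 FPKM (SD, n = 5) in WT, 166 ± 85.4 in HO and 42.7 ± 20.3 in DHO. Ido1 rose by 2.16 in HO against WT (SE 0.35, 95% interval 1.41 to 2.91, limma adjusted p = 0.000168; exact permutation p = 0.00794, the smallest possible) and fell by 1.89 in DHO against HO (SE 0.35, 95% interval -2.65 to -1.14, limma adjusted p = 0.000417). It was the only member with separate groups in DHO against HO, where 33.3% of all genes tested had separate groups, 5.44% with DHO lower. DHO against WT was not called (0.26, 95% interval -0.49 to 1.02).

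Both Ido1 calls held under every alternative tried. Leaving out single libraries gave 1.93 to 2.43 in HO against WT and -2.16 to -1.66 in DHO against HO. The 2 highest HO libraries, HO 2 and HO 4, are those with B cell transcripts, and without them and DHO 1 the rise was 1.65 (limma adjusted p = 0.00258). Without HO 1, DHO 3 and DHO 4 it was 2.23 (limma adjusted p = 0.000205), and Ido1 in DHO then stood below WT by a change of -0.21, which was not called. Markers of dendritic cells, another known site of Ido1, summed over 8 genes to 4.51 to 6.16 FPKM in WT. The sum was 3.72 (HO 5) to 21.7 (HO 4) in HO and 2.74 to 5.62 in DHO, with none of the 8 at 0 in a whole group. Mean FPKM was lower in HO than in WT for Xcr1 (0.145 against 0.186) and Cd209a (0.0306 against 0.106). It was higher in HO for the rest of these markers. HO 4, with the highest sum, is a library with B cell transcripts. The part of dendritic cells in the Ido1 values was not tested. The genes most like Ido1 were Tm4sf20, Ptpn12, Hif1a, Got1 and Arf2 (r = 0.95 to 0.97 over 15 libraries, and 0.81 to 0.86 with group means removed).

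Of the other tryptophan and kynurenine genes, 9 of 18 in the table passed the filter, and 3 rose and 1 fell in HO against WT. Of all genes tested, 12.4% were called higher and 42.9% lower in that comparison. The median change of the 9 was -0.055. It turned to 0.16 with median-of-ratios scaling and 0.25 relative to the epithelial markers, at the same counts of 3 and 1. Wars, the tryptophanyl-tRNA synthetase, was 39.5 ± 2.97 FPKM in WT libraries, 92.8 ± 22.3 in HO and 34.8 ± 1.64 in DHO, and rose by 1.18 in HO against WT (limma adjusted p = 1.23e-05). Slc6a19, the neutral amino acid transporter of the brush border, rose by 1.11 (limma adjusted p = 2.73e-05), and Slc3a2, the heavy chain of amino acid exchangers, rose by 0.79 (limma adjusted p = 0.00152). Kyat1, a kynurenine aminotransferase, fell by 1.71 in HO against WT (limma adjusted p = 2.07e-05) and rose by 2.10 in DHO against HO (limma adjusted p = 4.17e-06), from 8.08 ± 1.94 FPKM in WT to 1.85 ± 0.975 in HO and 10.9 ± 2.51 in DHO. Kmo, the kynurenine hydroxylase, was not called in either comparison (0.17 and -0.35). The related first enzymes Ido2 and Tdo2 reached at most 0.114 and 0.0933 FPKM in any library, so Ido1 was the one enzyme of that step above the filter.

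Enzymes that remove superoxide and peroxide, the products of the oxidases, were called about as often as all genes. Of 18 tested, 2 rose and 8 fell in HO against WT (median -0.12), where 12.4% of all genes were called higher and 42.9% lower, and 10 rose and 2 fell in DHO against HO (median 0.45), where 42.8% of all genes were called higher. Relative to the epithelial markers the counts were 6 higher and 4 lower in HO against WT (median 0.25), and with median-of-ratios scaling 4 higher and 6 lower (median 0.13). The peroxiredoxins Prdx1, Prdx2 and Prdx3 fell by 1.00, 0.80 and 1.05 in HO against WT and were called lower under each scaling tried (limma adjusted p = 0.000139, 0.000132 and 2.41e-05). Gpx3, a secreted glutathione peroxidase, rose by 1.44 (limma adjusted p = 0.000422) and Sod3, the extracellular superoxide dismutase, by 0.89 (limma adjusted p = 0.00295).

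Of 21 tested cytokines, receptors, signal transducers and transcription factors known to act upstream of the members, 11 rose and 2 fell in HO against WT (median 0.50), and 1 rose and 12 fell in DHO against HO (median -0.51). Over all genes, 12.4% were called higher in HO against WT and 13.4% lower in DHO against HO. With median-of-ratios scaling the HO against WT counts were 16 higher and 0 lower, and relative to the epithelial markers they were 17 and 0. Cebpd rose by 2.66 (limma adjusted p = 2.06e-06), from 11.0 ± 1.20 FPKM in WT to 80.4 ± 39.1 in HO, and stood at 10.6 ± 3.09 in DHO. Tnfrsf1a, the type 1 TNF receptor, rose by 1.10 (limma adjusted p = 2.60e-05). Ifng, a known inducer of Ido1, and Il22, a known inducer of Duox2 and Duoxa2, were too low for the test. Ifng lay between 0.0213 and 0.339 FPKM in WT, 0.188 and 1.20 in HO and 0 and 0.212 in DHO. Il22 lay at 0.0902 or less in WT, between 0.199 and 6.66 in HO and at 1.65 or less in DHO.

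**Figure D4:**
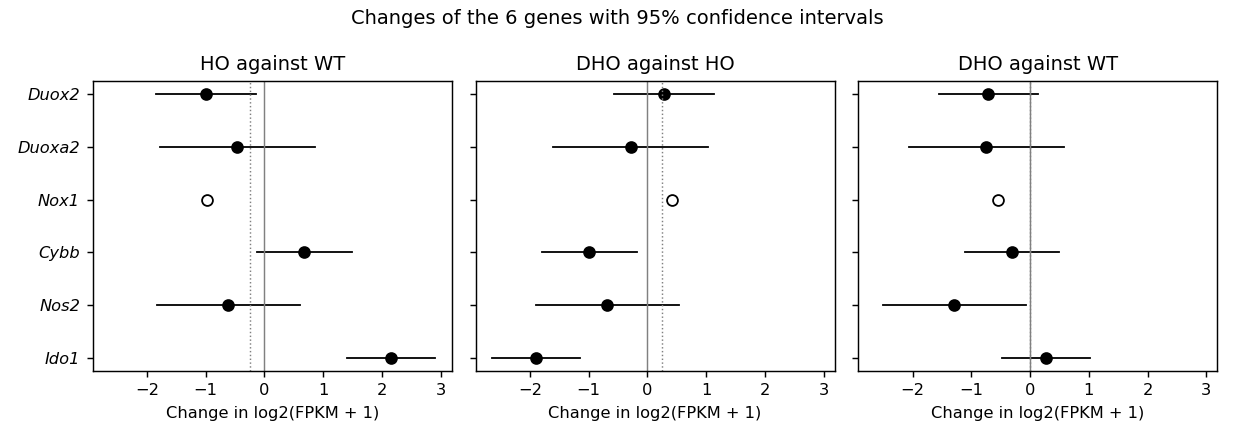
Change in log2(FPKM + 1) of each member with its 95% confidence interval from the limma fit (filled points; Nox1 as an open point without interval, since it was tested by permutation), for the 3 comparisons; the dotted line is the median change of all genes tested. Ido1 lies at 2.16 in HO against WT and at -1.89 in DHO against HO, and in DHO against WT the interval of Nos2 alone lies below 0, without passing the adjusted test.

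Across genotypes, the levels can be ordered only in part. For Ido1 the order was HO above DHO and WT, which overlapped. For Nox1 it was WT, then DHO, then HO, with WT and HO separate and DHO overlapping both. For Duox2 it was WT, DHO and HO, with each neighbour overlapping the next. For Duoxa2 it was WT, DHO and HO, for Nos2 WT, HO and DHO, and for Cybb HO, WT and DHO, with all ranges overlapping. These orders are of mean FPKM. For Duoxa2 the log2(FPKM + 1) scale put DHO below HO instead (-0.29), as did the median FPKM (81.8 in DHO and 105 in HO). In WT, Duoxa2 and Duox2 were the most abundant per length (135 and 98.7 FPKM), followed by Nos2 and Ido1 (53.2 and 33.1 FPKM), with Cybb and Nox1 far below (2.77 and 1.23 FPKM). In HO, Ido1 had the highest mean level of the 6 (166 FPKM).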

How the data were processed

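The authors deposited 1 table of FPKM values for 25329 gene symbols in 15 libraries; the unit was read from the values, because the file names none. The submitters' processing notes name the tools HTSeq, HISAT2 and fastp and the build mm10; their versions, settings and annotation are not given in the sources used here. Within each gene the values are whole multiples of the value of 1 read, so whole reads were recovered for 99.99% of genes above 0 (tolerance 0.02 of a read). Recovered depths were 38724783 to 40590053 reads per library. The reads carry no molecular identifiers, and limits on counts cover counting error only. The closest pairs of libraries (DHO 3 with DHO 4, WT 1 with WT 2) differed by a chi-square of 16.2 and 20.9 per gene, above sampling noise, and all libraries were counted singly.

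Libraries were grouped by the genotype in the labels and numbered in accession order, which pairs no libraries. Genes that reached 1 FPKM in 5 or more libraries entered 1 fit of group means of log2(FPKM + 1), with limma-trend and robust moderation (limma 3.58.1, R 4.3.3), two-sided, with Benjamini-Hochberg adjustment over 11332 genes and a threshold of 0.05. A gene low in other groups could pass through 1 group, and the added 1 FPKM draws changes of low genes toward 0. Exact permutation tests (scipy 1.17.1) of the 6 members in 3 comparisons were adjusted over 18 tests and stand in place of the fit for Nox1. The workflow was tested on simulated data.

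The members, lists and markers were chosen with earlier results of these data known. Named were the members, the genes of 5 pathway lists that passed the filter (as a rule the 3 with the smallest p in HO against WT of each list; results of some listed genes are not reported here), and for each member the 5 genes with the highest Pearson r over the 15 libraries. Promoter sequences and gene positions come from RefSeq on GRCm38.p6, the assembly behind mm10; 4 of the 6 members had a promoter entry. Exon overlaps come from GENCODE. Alternatives were other filters, pseudocounts, scalings and fits, limma-voom on the recovered reads, leaving out each library and leaving out the libraries that stood apart. Chosen after seeing the data were scaling to the epithelial markers and leaving out all 6 libraries that stood apart.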

Additional observations from a re-analysis of the deposited data

Results flagged for a closer look

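The check covered the members and the genes named for the smallest p in their list, and other genes given above were not checked. A single library stood far from the other 4 of its group for 4 of these values. In all, 60 groups were checked, and chance flags about 1 in 20. None was a value of the 6 members. Slc6a19 was 776.6 FPKM in HO 2, against 446 to 526 in the other HO libraries, and 250.4 FPKM in DHO 2, against 297 to 300.4 in the other DHO libraries. In HO 4, Cebpd was 149 FPKM against 50.8 to 68.8 in the rest of its group. Tnfrsf1a was 231 FPKM in HO 1, against 151 to 169.6 in the other HO libraries. HO 1, HO 2 and HO 4 are among the libraries that stood apart by Gata4 or Ms4a1. Each of these genes kept separate HO and WT groups with the flagged library included, and what set these libraries apart was not tested.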

How the results depend on the processing

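No paired analysis was possible because the replicate numbers follow accession order and mark no shared animal, litter or batch.

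Both Ido1 calls held in all 28 alternatives. Duox2 in HO against WT was no longer called with no filter or a filter of 0.1 FPKM (both -0.998), median-of-ratios scaling (-0.68), quantile normalization (-0.85), relative to the epithelial markers (-0.55), without HO 2, HO 4 and DHO 1 (-0.86) or without all 6 libraries that stood apart (-0.79); leaving out single libraries gave -1.25 to -0.81. In DHO against HO Duox2 turned to -0.0202 with median-of-ratios scaling, -0.13 relative to the epithelial markers, -0.29 without HO 1, DHO 3 and DHO 4, and -0.32 without all 6.

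Duoxa2 in DHO against HO was -1.33 and called without HO 1, DHO 3 and DHO 4, 0.18 without HO 2, HO 4 and DHO 1, and -0.69 to 0.16 without single libraries. Nos2 there was -1.87 and called, and 0.21, under those same leave-outs. Cybb in HO against WT was called with quantile normalization (0.92) and ranged from 0.43 to 1.00 without single libraries. Without all 6 it was 0.0101 and not called. Cybb in DHO against HO was not called with no filter (-0.99), in a fit of only the 2 groups (-0.99), without HO 1, DHO 3 and DHO 4 (-0.62), without HO 2, HO 4 and DHO 1 (-0.61) or without all 6 (-0.00392), and ranged from -1.31 to -0.73 without single libraries. In DHO against WT, Cybb turned to 0.13 without HO 1, DHO 3 and DHO 4 and to 0.00615 without all 6, and Ido1 to -0.21 and -0.24.

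Nox1 in HO against WT kept its direction but not its call relative to the epithelial markers (-0.87) and without either set of 3 libraries (-0.94 and -0.96). Single libraries gave -1.08 to -0.83, and in 14 of 15 cases the adjusted exact permutation p lay between 0.0714 and 0.0952. Leaving out a WT or HO library raises the smallest p that the Nox1 test can reach. Leaving out a DHO library leaves that test unchanged, and only the adjustment over the 18 tests moves. Over all libraries the adjusted exact permutation p of 0.0476 was shared with both Ido1 calls, which reached the same unadjusted p, so the Nox1 call depended on them. For Nox1, quantile normalization, fits of only the 2 groups, moderation without robustness, limma-voom and leaving out all 6 libraries were not run.

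Over all genes, calls in HO against WT were 2505 higher and 3154 lower with quantile normalization, 2804 and 2640 with median-of-ratios scaling and 3108 and 1560 relative to the epithelial markers, against 1406 and 4867, and 930 higher without HO 2, HO 4 and DHO 1. In DHO against HO (4846 higher, 1513 lower) they were 2797 and 2934, and 1800 and 3032, with the last 2 of these scalings; genes lower were 2595 with quantile normalization, 934 without HO 2, HO 4 and DHO 1 and 763 without all 6. In DHO against WT (9 higher, 18 lower) they were 91 and 95 in a fit of only the 2 groups, 2 and 11 with median-of-ratios scaling and 1 and 4 relative to the epithelial markers. Genes higher there were 14 with the filter of 0.1 FPKM, 5 with limma-voom, 27 without HO 1, DHO 3 and DHO 4 and 3 without all 6, and genes lower were 39 without HO 2, HO 4 and DHO 1. Leaving out single libraries gave 3 to 32 higher and 8 to 44 lower. The median change of all genes in HO against WT moved from -0.25 to 0.010 with median-of-ratios scaling, -0.046 with quantile normalization and 0.13 relative to the epithelial markers. The cause of these changes was not tested. Depth limits Nox1, with 36 reads or fewer in every HO library.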
